A study of Homo sapiens with 12 samples.

Results

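Mitochondrial ribosomal proteins were followed as mRNAs in SW1783 cells, a human astrocytoma line, given a water extract of Aconitum carmichaeli Debeaux (ACD). The genes were the protein-coding genes of the table whose GENCODE symbol starts with MRPL or MRPS followed by a digit, which gave 78 genes of 60675 gene IDs, 49 named MRPL and 29 named MRPS. The cells were given ACD at 20 µg/mL (low dose), 100 µg/mL (medium dose) or 500 µg/mL (high dose) for 24 h, or PBS with 2% DMSO (vehicle) for the same time, with 3 libraries in each of the 4 groups. The titles and treatment labels name ACD, whereas the treatment protocol in the labels describes another herb, Poria cocos, so which extract the cells received rests on the titles and the study. SW1783 is 1 tumour line. The extract is a mixture whose make-up is not given in the labels, and the study measured a few of its alkaloids. The labels do not say whether the 3 libraries of a group came from separate cultures. The p-values therefore measure only the spread between these libraries, which may be technical.

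Mitochondria hold their own ribosome, the mitoribosome, which translates the few proteins encoded by mitochondrial DNA, all of them subunits of the respiratory chain and ATP synthase. Its rRNAs, MT-RNR1 in the small subunit and MT-RNR2 in the large, are transcribed from mitochondrial DNA, but every one of its proteins is encoded in the nucleus, made in the cytosol and imported. Some of these proteins have bacterial counterparts and others are found only in mitochondria, and the gene names do not always follow the subunit, since MRPS30 and MRPS18A sit in the large subunit and MRPS36 belongs to the oxoglutarate dehydrogenase complex rather than to the ribosome.

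Total counts lay between 18863863 and 24200576 per library, and the mitochondrial ribosomal protein genes took 0.332% ± 0.00182 (SD, n = 3) of them in the vehicle group. All 78 genes had counts, with means over the 12 libraries of 136 to 2920 normalised counts (counts divided by the DESeq2 size factor of the library) and a median of 780. Of 9 astrocyte and glioma markers, VIM, CD44, SOX9, SLC1A3 and NES had means of at least 100 normalised counts, whereas AQP4 was at 0 in every library and GFAP, S100B and ALDH1L1 did not pass 6, 5 and 2 counts. Of 14 markers of neurons, leukocytes, oligodendrocytes and epithelium, 5 had means of at least 100 (SNAP25, SYT1, PTPRC, MBP and KRT8). At the high dose VIM rose (log2 fold change 0.29) and SLC1A3 (-2.45), NES (-1.73), CD44 (-0.38) and SOX9 (-0.25) fell. The median of the 8 astrocyte and glioma markers with counts was -0.74. It takes in GFAP, S100B and ALDH1L1, whose few counts leave their fold changes uncertain. Of the other cell types' markers SNAP25 (log2 fold change -2.07), PTPRC (-1.71) and KRT8 (-0.59) fell and MBP (0.85) and SYT1 (0.44) rose by the DESeq2 test, and the part of either marker list in the results below was not tested.

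The promoters of 5 genes are shown so that genes which rose, fell or stayed can be set side by side where their transcription starts. RefSeq promoters (GRCh38.p14, 250 bases before to 50 after the start) matched 69 of the 78 genes. They were searched on both strands for the letters AAGATGGC (the core bound by YY1), CCGGAAG (the core bound by ETS factors such as GABPA) and GCGCATGC (the core bound by the factor NRF1). The last 3 letters of the ETS string are the first 3 of the YY1 string, so a match of one can overlap a match of the other. The sequences below run 5′ to 3′ in the direction of the gene, with the matched letters in capitals. MRPS30 (chr5:44808697-44808996, plus strand) had the largest rise of the family at the high dose, MRPS18B (chr6:30617590-30617889, plus strand) rose at both the medium and the high dose, MRPL47 (chr3:179604589-179604888, minus strand) fell at both, MRPS14 (chr1:175023376-175023675, minus strand) had the largest fall, and MRPL46 (chr15:88467339-88467638, minus strand) shares its start region with MRPS11, another gene that fell.
MRPS30: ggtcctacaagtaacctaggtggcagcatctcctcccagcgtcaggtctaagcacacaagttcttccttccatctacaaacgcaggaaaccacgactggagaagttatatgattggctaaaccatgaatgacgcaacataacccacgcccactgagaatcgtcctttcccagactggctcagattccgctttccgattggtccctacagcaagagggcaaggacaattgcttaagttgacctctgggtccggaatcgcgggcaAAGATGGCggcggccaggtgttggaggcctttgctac
MRPS18B: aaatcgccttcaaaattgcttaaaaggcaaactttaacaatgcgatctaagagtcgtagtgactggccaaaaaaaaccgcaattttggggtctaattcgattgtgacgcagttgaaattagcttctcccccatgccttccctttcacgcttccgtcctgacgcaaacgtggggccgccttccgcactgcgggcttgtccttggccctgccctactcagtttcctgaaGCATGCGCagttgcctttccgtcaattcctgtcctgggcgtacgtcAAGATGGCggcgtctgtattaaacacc
MRPL47: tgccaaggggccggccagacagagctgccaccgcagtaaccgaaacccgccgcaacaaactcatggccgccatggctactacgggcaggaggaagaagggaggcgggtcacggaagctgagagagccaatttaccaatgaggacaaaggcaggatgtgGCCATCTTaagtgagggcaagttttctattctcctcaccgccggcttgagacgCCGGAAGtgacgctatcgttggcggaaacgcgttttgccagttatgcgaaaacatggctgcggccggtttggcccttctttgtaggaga
MRPS14: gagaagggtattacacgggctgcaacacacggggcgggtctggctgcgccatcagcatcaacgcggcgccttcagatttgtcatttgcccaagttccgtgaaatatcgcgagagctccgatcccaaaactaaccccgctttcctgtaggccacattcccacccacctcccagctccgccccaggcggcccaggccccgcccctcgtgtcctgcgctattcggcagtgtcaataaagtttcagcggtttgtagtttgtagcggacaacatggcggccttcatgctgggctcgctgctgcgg
MRPL46: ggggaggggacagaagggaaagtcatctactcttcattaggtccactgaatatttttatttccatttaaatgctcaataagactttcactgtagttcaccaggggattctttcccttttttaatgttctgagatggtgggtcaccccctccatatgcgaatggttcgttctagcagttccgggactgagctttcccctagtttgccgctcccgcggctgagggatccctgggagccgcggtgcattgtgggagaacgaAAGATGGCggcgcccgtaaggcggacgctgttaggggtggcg

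In MRPS30, MRPS18B and MRPL46 the YY1 letters lay just inside the transcript, beginning 13, 23 and 8 bases after the start. The YY1 string holds ATG, the letters of a start codon, so a match there need not be a YY1 site. Binding was not tested for any of the strings. MRPS18B also held the NRF1 letters 23 bases before the start, on the reverse strand. In MRPL47 the ETS letters began 39 bases and the reversed YY1 letters 92 bases before the start. The MRPS14 window held none of the 3 strings. Over all 69 matched promoters, YY1 letters were found in 29% (3.91% of 15843 promoters of protein-coding genes, 3.03% of all 27305 promoters), ETS letters in 42% (14.2% and 10.7%) and NRF1 letters in 8.7% (4.26% and 3.27%). At least one string was present in 16 of 20 matched genes that were lower at the high dose, 7 of 13 that were higher and 19 of 36 that were not called, which is given as a description with no test.

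At the high dose the family split in both directions in small steps. Of the 78 genes, 15 rose (19453 genes were tested, of which 23.9% were called higher) and 22 fell (22.6% called lower), by the DESeq2 Wald test at an adjusted p under 0.05. Among the 9299 tested genes with mean counts in the range of the family, 36% were called higher and 30.7% lower. None was a differentially expressed gene (DEG), which also asks for a change of more than 1.5-fold (18.2% of genes were), and edgeR's quasi-likelihood test called 16 higher and 27 lower (33.2% and 32.3% of the genes it tested) and also gave 0 DEGs (24.4%). In bulk RNA, fewer cells with a transcript and less of it per cell cannot be told apart. With no adjustment, 39 genes had p under 0.05. The high dose libraries lay wholly above the vehicle libraries in 16 genes (30.6% of tested genes) and wholly below them in 28 (29.9%). The log2 fold changes ran from -0.51 to 0.42 with a median of -0.06, against a median of -0.01 over all tested genes. Their standard deviation was 0.20, against 0.558 over the 9299 tested genes whose mean counts fell in the same range as those of the family.

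In 76 of the 78 genes the 95% interval of the fold change lay wholly inside 1.5-fold, a count chosen after the values were seen. Over all tested genes the share was 40.5%, and it was 68.1% among genes in the same count range. Like groups were also narrow, with 83 of 87 cytosolic ribosomal protein genes and 76 of 87 nuclear-encoded respiratory chain subunit genes inside. Of their tested genes, 1 of 86 and 2 of 84 were DEGs. In the mitochondrial ribosomal family the exceptions were MRPS14 and MRPS11, the pair with the largest falls. The share of genes called at all, 37 of 78, is close to the background of 46.5% over all genes and below the 66.6% found among genes in the same count range.

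**Figure D1:**
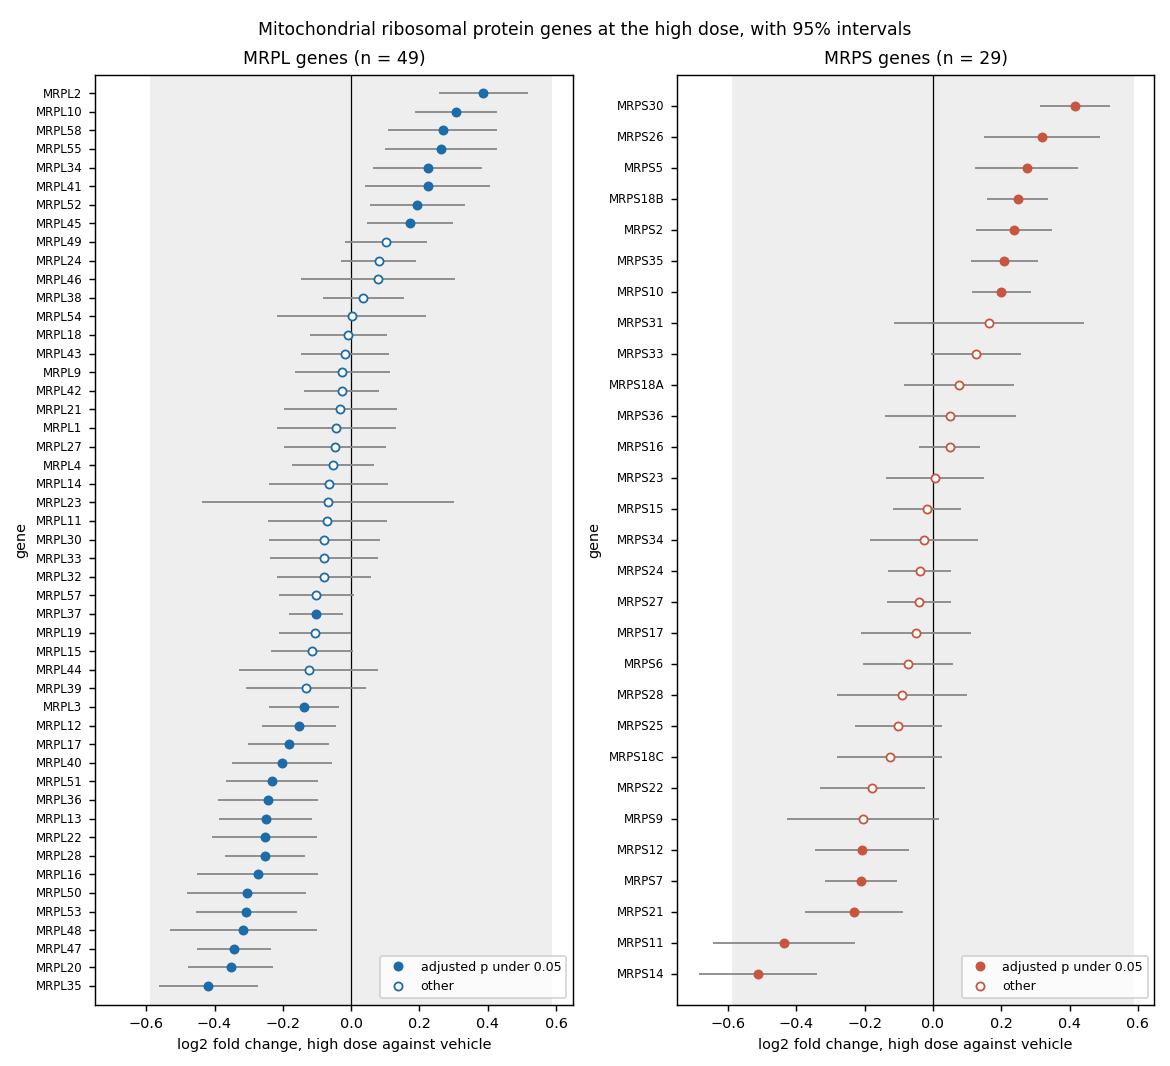
Log2 fold change at the high dose against vehicle for the 49 MRPL genes and the 29 MRPS genes, ordered by value. Points are DESeq2 estimates, filled where the adjusted p was under 0.05, lines are 95% intervals and the grey band is 1.5-fold either way. Every point lies inside the band, and only the intervals of MRPS14 and MRPS11 leave it.

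Of the 49 MRPL genes 8 rose and 17 fell, with a median log2 fold change of -0.08. Of the 29 MRPS genes 7 rose and 5 fell, with a median of -0.03. Among all tested genes 23.9% were called higher and 22.6% lower, and in the count range of the family 36% and 30.7%. The difference between them was not tested, since the genes of a group share their libraries and are not replicates. Placed by subunit rather than by name, and with the 5 mitoribosomal proteins that carry other symbols included, 9 of 52 large subunit genes rose and 17 fell, and 7 of 30 small subunit genes rose and 7 fell.

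By role, the largest group was the 30 large subunit proteins with bacterial counterparts. Of these 4 rose and 11 fell (all tested genes: 23.9% and 22.6%), with a median of -0.08. MRPL35, a protein of the central protuberance, MRPL20, and MRPL47, which lies at the polypeptide exit site where the new chain leaves the ribosome, had the largest falls of this group. MRPL22 at the same exit site was at -0.25, MRPL36 at -0.24 and MRPL28 at -0.25, all passing the test. The 4 that rose were MRPL2 (0.39), MRPL10 (0.31), MRPL55 (0.26) and MRPL34 (0.22). MRPL2 lies near the centre that joins amino acids, and MRPL10 forms the base of the stalk that recruits translation factors.

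Of the 21 large subunit proteins found only in mitochondria, 5 rose and 6 fell (all tested genes: 23.9% and 22.6%). Their median was -0.02. The rises were MRPS30 (0.42), MRPL58 (0.27), a peptidyl-tRNA hydrolase that became a ribosomal protein, MRPL41 (0.22), MRPL52 (0.19) and MRPL45 (0.17), which lies at the exit site facing the inner membrane. The falls were MRPL48 (-0.32), MRPL53 (-0.31), MRPL50 (-0.31), MRPL51 (-0.23), MRPL40 (-0.20) and MRPL37 (-0.10). Most exon bases of MRPL53 (79.4%) are also exon of a gene on the opposite strand, and for MRPL51 the share was 27.6%. Whether the counting used strand is not given in the sources used here, so reads of these pairs cannot be told apart with certainty.

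Of the 16 small subunit proteins with bacterial counterparts 3 rose and 5 fell, with a median of -0.08. Of 10 found only in mitochondria 3 rose and 0 fell, with a median of 0.07 (all tested genes: 23.9% higher and 22.6% lower). No fall in that second group was called by DESeq2, 4 of the 10 genes had an unadjusted p under 0.05, and edgeR called 4 higher and 1 lower. The rises were MRPS5 (0.27), MRPS2 (0.24) and MRPS10 (0.20) in the first group and MRPS26 (0.32), MRPS18B (0.25) and MRPS35 (0.21) in the second. MRPS14, MRPS11, MRPS21 (-0.23), MRPS7 (-0.21) and MRPS12 (-0.21) fell, and MRPS12 is part of the decoding centre that checks the match of codon and tRNA.

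Within the finer structures the members also moved apart. In the stalk and its base, MRPL10 rose while MRPL12 (-0.15), the stalk protein that it anchors, and MRPL53 fell, and MRPL11 (-0.07) and MRPL54 (0.00) did not pass the test. In the central protuberance of 8 proteins 1 rose and 3 fell. At the exit site of 7 proteins 1 rose and 2 fell (all tested genes: 23.9% higher and 22.6% lower). Of the 3 paralogs of the S18 family, MRPS18B rose, and MRPS18A (0.08, adjusted p 0.485 by DESeq2) and MRPS18C (-0.13, adjusted p 0.189) did not pass. MRPS36, the one symbol that is no ribosomal protein, had 392 ± 14 normalised counts with vehicle and 406 ± 27 at the high dose (n = 3 each) and did not pass.

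MRPS14 (ENSG00000120333, chr1:175010789-175023425, GRCh38) had the largest fall. It codes for a small subunit protein of the head. Its normalised counts were 487, 473 and 543 with vehicle, 525, 535 and 543 at low, 445, 491 and 444 at medium and 344, 359 and 349 at high dose. The 3 high dose libraries lay below all others and close together, and the low and medium doses overlapped the vehicle range. High dose against vehicle gave a log2 fold change of -0.51 (SE 0.0884, adjusted p 3.35e-08 by DESeq2), and against the medium dose it was -0.39 (adjusted p 5.32e-05). Of its exon bases 14.9% lie opposite exons of CACYBP.

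MRPS11 (ENSG00000181991, chr15:88467453-88480776), a protein of the platform of the small subunit, had 451, 447 and 480 normalised counts with vehicle, 376, 373 and 413 at medium and 383, 351 and 287 at high dose. Both dosed groups lay below the vehicle group, and the high dose libraries were the most spread. The fall was -0.44 at the high dose (SE 0.106, adjusted p 0.000132 by DESeq2) and -0.25 at the medium dose, which missed the threshold (adjusted p 0.0624; edgeR 0.0274). MRPL46, whose start lies 63 bp away on the other strand, had 258 ± 12.2 with vehicle and 273 ± 16.5 at the high dose (log2 fold change 0.08, adjusted p 0.623).

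MRPL35 (ENSG00000132313, chr2:86199355-86213790) had 760, 791 and 728 normalised counts with vehicle, 782, 757 and 802 at low, 670, 757 and 714 at medium and 602, 541 and 568 at high dose. Only the high dose stood apart from vehicle, at -0.42 (SE 0.0734, adjusted p 6.1e-08 by DESeq2). MRPL20 (ENSG00000242485, chr1:1401909-1407293) gave 877, 878 and 903 with vehicle and 713, 681 and 688 at the high dose, with no overlap. Its fall was -0.35 (SE 0.0642, adjusted p 1.79e-07), and at the medium dose it was -0.09 (adjusted p 0.316).

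MRPL47 (ENSG00000136522, chr3:179588285-179604649), of the 5 largest falls, was the one that also passed at the medium dose. It had 1401, 1333 and 1351 normalised counts with vehicle, 1348, 1239 and 1299 at low, 1244, 1171 and 1168 at medium and 1097, 1088 and 1034 at high dose. The medium and high dose libraries formed separate steps below vehicle with no overlap between any of these 3 groups. The log2 fold changes were -0.19 (SE 0.0549, adjusted p 0.00316 by DESeq2) at the medium dose and -0.34 (SE 0.0554, adjusted p 3.16e-09) at the high dose, and the high dose was also below the medium dose (-0.15, adjusted p 0.0178, lost without medium dose replicate 1, at 0.114, or high dose replicate 3, at 0.122).

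MRPS30 (ENSG00000112996, chr5:44808947-44820428), a large subunit protein despite its name, had the largest rise. Its normalised counts were 1164, 1206 and 1191 with vehicle, 1291, 1220 and 1271 at low, 1168, 1222 and 1275 at medium and 1555, 1593 and 1601 at high dose. The high dose libraries stood well clear of the other 9, which formed one range. The log2 fold change was 0.42 at the high dose (SE 0.0517, adjusted p 6.83e-15 by DESeq2) and 0.04 at the medium dose (adjusted p 0.595), and the high dose exceeded the medium dose by 0.37 (adjusted p 5.89e-12).

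MRPL2 (ENSG00000112651, chr6:43054029-43059438) had 710, 697 and 738 normalised counts with vehicle, 773, 783 and 860 at medium and 932, 940 and 932 at high dose. The 3 groups did not overlap. The rise was 0.39 at the high dose (SE 0.0668, adjusted p 3.36e-08 by DESeq2). At the medium dose it was 0.17 (adjusted p 0.0365), a call that was lost when any one of 10 of the 12 libraries was left out, with an adjusted p of up to 0.293 without medium dose replicate 3, and lost with a replicate block (0.0858).

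MRPL10 (ENSG00000159111, chr17:47823272-47831541) rose from 946, 900 and 916 normalised counts with vehicle to 1080, 1200 and 1130 at the high dose. The groups did not overlap, and the log2 fold change was 0.31 (SE 0.0614, adjusted p 2.36e-06 by DESeq2). MRPS26 (ENSG00000125901, chr20:3046052-3048250) had 497, 534 and 643 with vehicle and 710, 696 and 683 at the high dose. The groups did not overlap, the vehicle libraries were the more spread group, and the log2 fold change of 0.32 (SE 0.0866, adjusted p 0.000694) was 0.24 to 0.43 when one library at a time was left out.

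MRPS5 and MRPS18B had about the same rise at the medium as at the high dose. MRPS5 (ENSG00000144029, chr2:95085369-95122006), which lies where mRNA enters the small subunit, had 648, 647 and 686 normalised counts with vehicle, 678, 768 and 780 at low, 809, 744 and 848 at medium and 809, 747 and 841 at high dose. The medium and high dose ranges nearly coincided, and both lay above vehicle. The log2 fold changes were 0.28 at the medium dose (SE 0.0771, adjusted p 0.00199 by DESeq2) and 0.27 at the high dose (SE 0.077, adjusted p 0.00108), and the difference between these doses was -0.00 (95% interval -0.15 to 0.15). Both calls were lost with total-count scaling, at adjusted p of 0.0821 and 0.0739.

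MRPS18B (ENSG00000204568, chr6:30617840-30626395) had 1662, 1573 and 1595 normalised counts with vehicle, 1785, 1879 and 1882 at medium and 1940, 1913 and 1884 at high dose. Both dosed groups lay above vehicle, and the lowest high dose library was just above the highest medium dose library. The rises were 0.20 (SE 0.0453, adjusted p 8.21e-05 by DESeq2) and 0.25 (SE 0.0451, adjusted p 1.8e-07), and the doses differed by 0.05 (95% interval -0.04 to 0.13), and the medium dose call was lost with total-count scaling (adjusted p 0.111). MRPL36 (ENSG00000171421, chr5:1798385-1801366), a short protein of the large subunit, went the other way, from 667, 634 and 673 to 549, 569 and 591 at medium and 558, 580 and 529 at high dose. Its falls were -0.21 (adjusted p 0.0229) and -0.24 (adjusted p 0.00296), and the medium dose call was lost without vehicle replicate 1 or 3 or medium dose replicate 1 or 2, at adjusted p of 0.0793 to 0.115, and with a replicate block (0.0688).

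**Figure D2:**
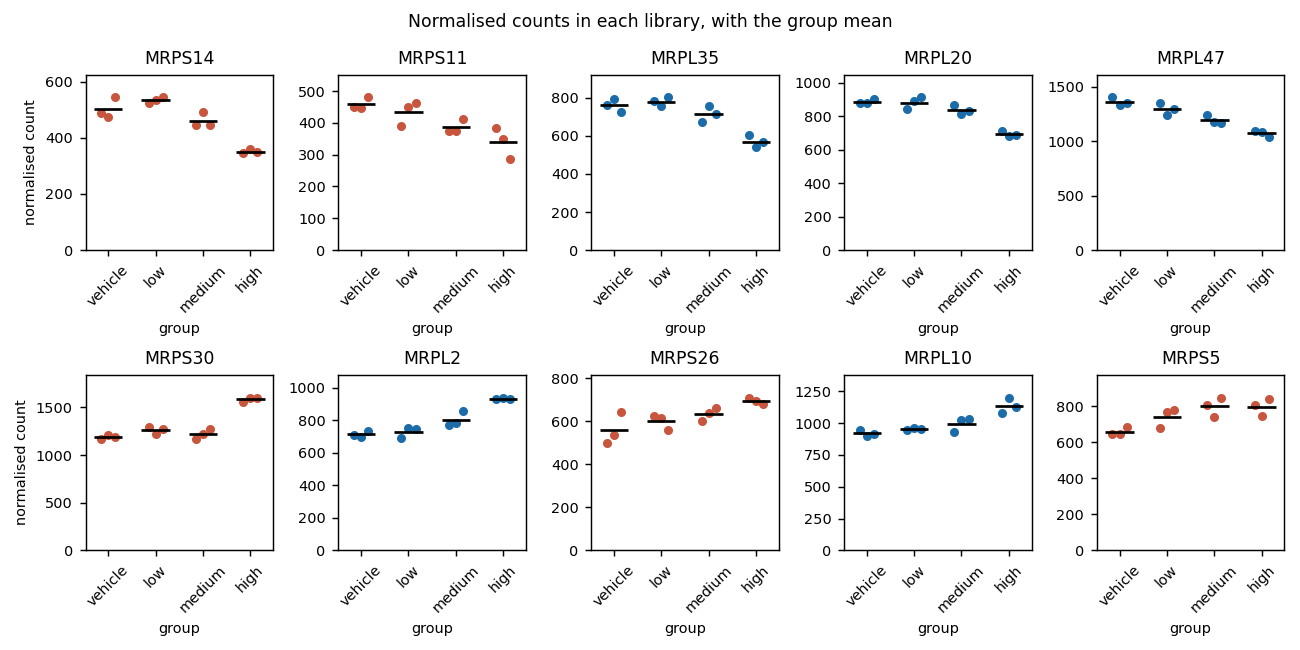
Normalised counts (y axis, from 0) of the 5 genes with the largest falls (top row) and the 5 with the largest rises (bottom row) at the high dose, by group on the x axis. Points are the 3 libraries of a group and lines are group means. The high dose libraries lie apart from the vehicle libraries in every panel, and in MRPS5 the medium dose libraries are as high as those of the high dose.

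At the medium dose far fewer genes passed. Of 78 tested, 5 rose (MRPS5, MRPS18B, MRPL2, MRPL24 and MRPS10, against 15.1% of 14082 genes) and 3 fell (MRPL47, MRPL36 and MRPL53, against 14.5%). None was a DEG (3.81% of genes were), 12 had an unadjusted p under 0.05, and edgeR called 7 higher and 5 lower with 0 DEGs (18.3%, 17.3% and 5.06% of its genes). The medium dose libraries lay wholly above vehicle in 11 genes (25% of tested genes) and wholly below in 13 (25.4%). The log2 fold changes ran from -0.25 to 0.28 with a median of 0.01, against -0.00 over all tested genes. MRPL24, at the exit site, was called at the medium dose (0.15, adjusted p 0.026 by DESeq2) and not at the high dose (0.08, adjusted p 0.258). High against medium dose did not pass for this gene (-0.07, adjusted p 0.321). The count of MRPL rises at the medium dose, 2, was 0 to 2 when one library at a time was left out. Apart from MRPL24, the 7 others called at the medium dose were called in the same direction at both doses, which share their vehicle libraries.

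At the low dose nothing passed. Of 76 genes with an adjusted p, DESeq2 called 0 higher and 0 lower (2.05% and 1.24% of 9304 genes), 0 were DEGs (0.118% of genes), 4 had an unadjusted p under 0.05, and edgeR called 0 (1.44% of its genes were higher and 1.08% lower). The low dose libraries lay wholly above vehicle in 8 genes (14.1% of tested genes) and wholly below in 5 (11.6%). MRPL23 and MRPS31 were too low for an adjusted p in that comparison. The log2 fold changes ran from -0.16 to 0.32 with a median of 0.03, and the largest, in MRPL23, came with 136, 111 and 124 normalised counts against 182, 156 and 125, ranges that overlap.

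Between the doses, 6 genes were higher and 15 lower when the high dose was set against the medium dose (21.1% and 19.8% of 16467 genes), with 0 DEGs by DESeq2 (10.2% of genes were) and 26 at an unadjusted p under 0.05. edgeR called 9 higher and 24 lower there (26.2% and 25.6%) with 0 DEGs (12.7%). From low to medium dose 1 gene, MRPS18B, was higher and 0 were lower (9.29% and 9.58% of 14082 genes), with 7 at an unadjusted p under 0.05, and edgeR called 2 higher and 4 lower (12.1% and 11.7%). The MRPS18B call (0.15, DESeq2 adjusted p 0.0094) was lost without low dose replicate 1 or medium dose replicate 2 or 3, at adjusted p of 0.0673 to 0.0809. Of the 22 genes that fell at the high dose against vehicle, 12 were also lower in the high against medium comparison, and of the 15 that rose, 5 were also higher. A likelihood ratio test over the 4 groups called 32 of the 78 genes, against 45.8% of all 19453 genes, and edgeR called 47 (67.1%).

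When libraries were scaled by their total counts, which include the mitochondrial rRNAs, 5 genes were higher and 40 lower at the high dose (18% and 31.1% of the genes tested under that scaling), and 0 were higher and 23 lower at the medium dose (6.51% and 29.2%). MRPS14 alone became a DEG (-0.63), against 20.1% of genes. That scaling shifts all genes alike, and it moved their median by -0.113 for the high and -0.111 for the medium dose, so the change in the counts follows from its construction. Falls outnumbered rises at the high dose under both scalings. With the genes of the mitochondrial chromosome left out of the size factors, the median of the family at the high dose was -0.06, as before.

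The summed normalised counts of the MRPL genes were 1.01 ± 0.00781 times the vehicle mean at low, 0.995 ± 0.00744 at medium and 0.953 ± 0.00986 at high dose (SD, n = 3). For the MRPS genes the sums were 1.02 ± 0.00641, 1.03 ± 0.0103 and 1.03 ± 0.00938 times the vehicle mean. On this scale the high dose libraries lay below the vehicle range for MRPL and above it for MRPS. These sums and the ratio below go by symbol. The MRPS side therefore takes in MRPS30, a large subunit protein with the largest rise of the family (log2 fold change 0.42). Sums by place in the ribosome were not made, so whether the MRPS separation and the ratio shift hold for the subunits was not tested. The MRPL fall held on the other scales, but the MRPS direction did not. As a share of all counts, the MRPS genes went from 0.131% ± 0.00122 with vehicle to 0.125% ± 0.00146 with no overlap, and as a share of nuclear counts they were at 0.138% ± 0.0014 and 0.137% ± 0.00144 with overlap (SD, n = 3 each). The ratio of MRPL to MRPS counts, which needs no scaling between libraries, was 1.54, 1.53 and 1.52 with vehicle and 1.40, 1.43 and 1.43 at the high dose. The medium dose, at 1.45, 1.49 and 1.48, and the low dose, at 1.51, 1.51 and 1.52, lay between, and each dose lay wholly below vehicle.

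The rRNAs that these proteins bind moved on another scale. MT-RNR1, listed at 13710, 13490 and 14350 normalised counts with vehicle, was 6.22 ± 0.439 times the vehicle mean at low, 22.2 ± 0.803 times at medium and 19.7 ± 0.374 times at high dose. MT-RNR2 was 3.25 ± 0.187, 8.04 ± 0.25 and 5.87 ± 0.189 times its vehicle mean. For every 100 counts of MT-RNR1 there were 192 ± 4.72 MRPS counts with vehicle, 31.7 ± 2.21 at low, 8.95 ± 0.379 at medium and 10.0 ± 0.265 at high dose. The values for the large rRNA, MRPL counts for every 100 counts of MT-RNR2, were 23.3 ± 0.569, 7.28 ± 0.414, 2.88 ± 0.0754 and 3.78 ± 0.16. Both series go by symbol and not by subunit, so MRPS30, MRPS18A and MRPS36 are counted against the small rRNA. The mitoribosomal proteins under other symbols are left out of both. Neither series overlapped between vehicle and any dose. The labels call these mRNA libraries but do not give the selection step, and its part in the rRNA counts was not tested.

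**Figure D3:**
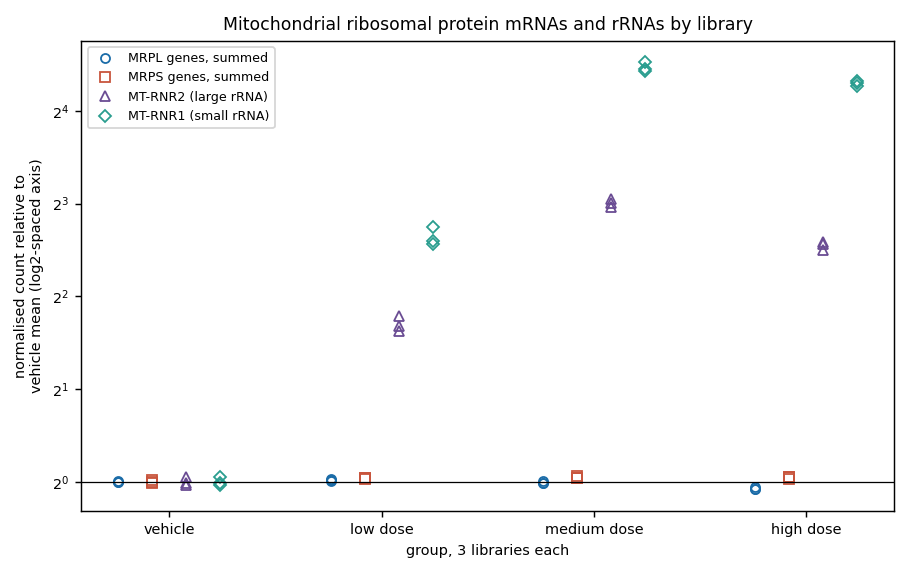
Summed normalised counts of MRPL genes, MRPS genes, MT-RNR2 and MT-RNR1 in each library, relative to the vehicle mean, on an axis spaced in powers of 2. Each point is 1 of 3 libraries in a group. The ribosomal protein mRNAs stay near 1 at every dose, and the rRNAs are highest at the medium dose.

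Levels within the family spanned a wide range. Per kilobase of the canonical transcript, the median over the 12 libraries was 625 normalised counts for MRPL genes and 612 for MRPS genes. MRPS24, a small subunit protein, had the highest level of its group (2554 per kb) and did not pass at any dose, with 1713 ± 39.5 normalised counts with vehicle and 1666 ± 72.1 at the high dose. MRPL37 had the highest level of its group (1969 per kb). Its fall at the high dose, from 2994 ± 83.1 to 2788 ± 95.2 (-0.10, DESeq2 adjusted p 0.0267), was lost without vehicle replicate 3, high dose replicate 1 or high dose replicate 2, at adjusted p of 0.0557 to 0.194.

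The lowest levels carry limits of their own. MRPL42 was at 90.1 per kb, on a canonical transcript of 15557 bases, so its level per length depends on that transcript being the one expressed. MRPS31 was at 119 per kb, and its pseudogenes took 39.4% as many counts as the gene itself. The counting splits reads that fit both, so its values, 168 ± 13.7 normalised counts with vehicle and 187 ± 26.1 at the high dose, are uncertain. In the other 77 genes the pseudogenes took under 10%, and over the family they took 0.116% as many counts as the genes. Exons of 17 genes overlap an opposite-strand gene over more than 10% of their bases. Without those 17, 13 of 61 genes rose and 19 fell at the high dose (all tested genes: 23.9% and 22.6%). Some members also share exon bases with another gene on the same strand, among them MRPL12 (69.5%), MRPL38 (41.1%) and MRPL2 (29.2%). Strand cannot separate such reads, and their part in the counts was not tested.

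A start region shared with a neighbour was common. In 17 of the 78 genes (21.8%, against 8.41% of 19586 protein-coding genes) a protein-coding neighbour on the other strand started within 1000 bp in a divergent arrangement. MRPL47 and MRPL36 each lie 41 bp from a gene of respiratory complex I. NDUFB5, beside MRPL47, was at -0.04 at the high dose (DESeq2 adjusted p 0.456), and NDUFS6, beside MRPL36, fell by 0.16 on the log2 scale (adjusted p 0.00412). SARS2, the mitochondrial seryl-tRNA synthetase gene 181 bp from MRPS12, fell by 0.43 (adjusted p 3.79e-06), where MRPS12 itself fell by 0.21. These pairs were picked out after their values were seen.

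Of the 5 mitoribosomal proteins under other symbols, DAP3, a GTP-binding protein of the small subunit, rose at the high dose from 1619 ± 47.7 to 1842 ± 76.3 normalised counts (0.19, SE 0.0512, adjusted p 0.000892 by DESeq2), a call lost with total-count scaling (adjusted p 0.257). CHCHD1 fell from 395 ± 42.9 to 334 ± 14.2 (-0.24, adjusted p 0.0369), lost in 8 alternatives and at most without vehicle replicate 3 (-0.15, adjusted p 0.289). With AURKAIP1 (-0.17, adjusted p 0.00226), 1 of the 5 rose and 2 fell (all tested genes: 23.9% higher and 22.6% lower).

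Of 30 assembly and rRNA modification genes 8 rose and 4 fell at the high dose (23.9% and 22.6% of all tested genes did). Of the 30, 2 were DEGs, both higher (18.2% of all tested genes were DEGs). RMND1, an inner membrane protein that tethers the mitoribosome, had 330, 336 and 372 normalised counts with vehicle, 387, 428 and 450 at medium and 652, 718 and 717 at high dose (1.01, SE 0.0903, adjusted p 6.37e-28 by DESeq2). MPV17L2, named after its values were seen as the other DEG, was at 0.68. MRM2, the methyltransferase that modifies the large mitochondrial rRNA, fell from 986, 974 and 994 to 710, 706 and 667 (-0.50, SE 0.0625, adjusted p 5.52e-15). Neither gene's vehicle and high dose ranges overlapped.

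Of 16 translation factors 6 rose and 2 fell at the high dose (23.9% and 22.6% of all tested genes did), with 8 at an unadjusted p under 0.05. None was a DEG by DESeq2 or edgeR (18.2% and 24.4% of their tested genes were). GFM2, which recycles the ribosome after termination, rose from 902 ± 27.2 to 1246 ± 58.2 normalised counts (0.47, DESeq2 adjusted p 3.42e-13), with 14.4% of its exon bases opposite other genes. TSFM, the exchange factor for elongation factor Tu, fell from 440 ± 24.5 to 336 ± 4.73 (-0.39, adjusted p 0.000134). Of the 13 mRNAs that the mitoribosome translates 0 rose and 7 fell at the high dose (all tested genes: 23.9% and 22.6%). There 8 had an unadjusted p under 0.05 and edgeR called 0 higher. MT-CO2, a subunit of cytochrome c oxidase, had the largest fall at that dose (-0.56, adjusted p 5.43e-25 by DESeq2). At the medium dose 0 rose and 8 fell (all tested genes: 15.1% and 14.5%), 5 of them DEGs (3.81%), with MT-CO2 at -0.78. At the low dose 2 rose, both DEGs (0.118%), and 7 fell (all tested genes: 2.05% and 1.24%).

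Among 9 regulators of nuclear genes for mitochondria, 3 rose at the high dose and 0 fell (3 at an unadjusted p under 0.05, and 0 lower by edgeR). Over all tested genes 23.9% rose and 22.6% fell. MYC, which promotes ribosome and mitochondrial gene expression, rose from 921 ± 59 to 2797 ± 154 normalised counts (1.60, SE 0.0556, adjusted p 1.44e-180 by DESeq2) and at the medium dose to 1492 ± 23.5. YY1 rose by 0.23 (adjusted p 3.18e-08), and NRF1 (-0.13, adjusted p 0.33) and GABPA (-0.03, adjusted p 0.752), whose binding letters were searched for above, did not pass. YY1, NRF1 and GABPA were named for that search and not by the size of their change.

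Set beside other groups of the same kind, the family lay between them. Of 86 tested cytosolic ribosomal protein genes 35 rose and 4 fell at the high dose, with a median log2 fold change of 0.10. RPS26 (-0.81) was their largest fall and RPL22L1 (0.44) their largest rise among called genes with a mean of at least 100. Of 84 tested nuclear-encoded respiratory chain subunits 7 rose and 41 fell, with a median of -0.16, from ATP5MC3 (-1.01) to COX7A2L (0.51) among called genes with a mean of at least 100. The mitochondrial ribosomal protein genes had 15 rises and 22 falls and a median of -0.06. Over all tested genes 23.9% were called higher and 22.6% lower. No test was made between the 3 groups.

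**Figure D4:**
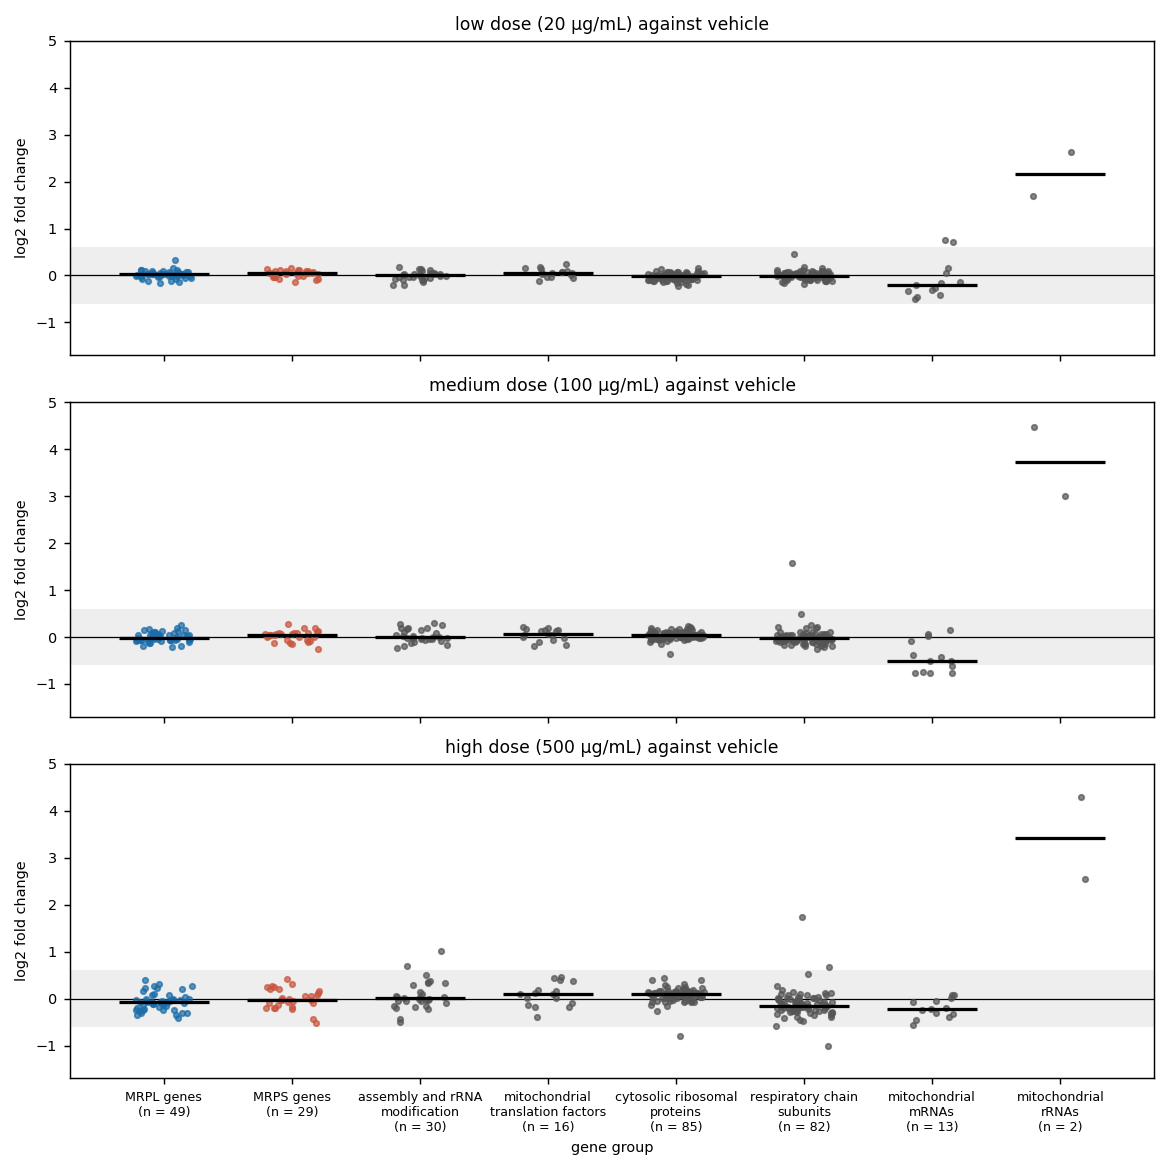
Log2 fold change against vehicle (y axis) at the low, medium and high dose for MRPL and MRPS genes, the genes that build and serve the mitoribosome, cytosolic ribosomal proteins, respiratory chain subunits, and the mitochondrial mRNAs and rRNAs. Each point is a gene with a mean of at least 10 normalised counts, black lines are medians and the grey band is 1.5-fold either way. The MRPL and MRPS points stay inside the band at every dose, while both rRNAs lie above it throughout.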

How the data were processed

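RNA-seq was run on 12 libraries of SW1783 cells in 4 groups of 3. mRNA libraries were made with a directional (strand-keeping) kit. The authors trimmed reads with Trim Galore 0.6.5 after FastQC 0.11.9, aligned them with STAR 2.7.3a and deposited expected counts per Ensembl gene from RSEM 1.3.3, which shares reads that fit several genes between them. These versions are those of the submitters' processing notes, and the study's methods name later ones for Trim Galore and STAR. How mRNA was selected and the strand setting of the counting are not given in the sources used here.

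Expected counts were rounded to whole numbers and genes were named by GENCODE 44 (GRCh38). Comparisons used the DESeq2 1.42.0 Wald test (R 4.3.3) fitted on all genes and all 12 libraries by group, with Benjamini-Hochberg adjustment and independent filtering. A gene was called at an adjusted p under 0.05, and a DEG also changed more than 1.5-fold. edgeR 4.0.16 (quasi-likelihood test) was an alternative, and other scalings, filters, group sets and left-out libraries were tried. The steps were tested on simulated data. Replicates of a group differed beyond sampling noise (chi-square per degree of freedom 1.99 to 3.55) and were kept apart. Replicate numbers come from the titles. Deviations from the group means correlated between same-numbered libraries in all 3 low and medium dose pairs (r of 0.124 to 0.193, against -0.158 to -0.00635 for different numbers). Deviations within a group cancel, so the values for different numbers are tied to those for the same number. The numbers may pair these 2 groups, but the labels do not say so, and 3 libraries per group cannot settle it. No other 2 groups compared had every same-numbered pair above the pairs of different numbers.

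Named genes were the 5 largest called rises and falls at the high dose and the 2 largest at the medium dose, with means of at least 100 and no overlap with vehicle, the highest and lowest levels per length, both mitochondrial rRNAs, and the largest change each way in each further list. Other genes are named as members called or by role. The genes and lists were chosen with earlier results of these data known.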

Additional observations from a re-analysis of the deposited data

How the results depend on the processing

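No named gene changed sign under an alternative where it was called in either fit. The direction of the other members was not compared. With total counts as size factors the family median changed sign, from 0.01 to -0.10 at the medium dose and from 0.03 to -0.01 at the low dose. Among counts of called genes over the whole family recomputed under them, 324 values held (counts within 1.5 times) and 31 did not. The MRPL and MRPS counts, the family medians and the named genes were kept apart from these. Among them 3687 values held and 74 counts or medians moved. For named genes 65 calls were lost and 27 were gained. With total counts as size factors, the high dose gave 5 higher, 40 lower and 1 DEG, the medium dose 0 higher and 23 lower, and medium against low dose 0 higher and 9 lower. With edgeR, 5 genes were lower at the medium dose, 24 were lower at high against medium dose, and medium against low dose gave 2 higher and 4 lower. A filter on low counts before DESeq2 gave 2 lower at medium against low dose, fitting only the 2 groups compared gave 9 lower at high against medium dose, and no independent filtering gave 3 higher at the medium dose. Leaving out one library at a time gave 2 to 5 higher and 1 to 3 lower at the medium dose, 8 to 13 lower at high against medium dose, 0 to 1 higher at medium against low dose, and 12 to 15 higher and 17 to 22 lower at the high dose. The medium dose count of rises was 2 without vehicle replicate 2 or medium dose replicate 2 and 3 without medium dose replicate 1 or 3. Its count of falls was 1 without vehicle replicate 1 or 3 or medium dose replicate 1 or 2, and the high against medium dose count of falls was 8 without medium dose replicate 1 or 2 and 9 without replicate 3. The cause was not tested.

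With a replicate block the medium dose gave 2 higher and 1 lower, and high against medium dose 8 lower. For medium against low dose, where the numbers may pair the libraries, the block gave 1 higher and 0 lower, as without it. In the other comparisons the correlations did not set every same-numbered pair above the rest. Same-numbered pairs had r of -0.111 to -0.0202 for vehicle and medium dose, -0.118 to -0.0447 for vehicle and low dose, -0.0593 to -0.00687 for vehicle and high dose, and 0.0355 to 0.221 for medium and high dose.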
